A study of Homo sapiens with 8 samples.

Results

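The response of the multiple myeloma (MM) cell line JJN3 to the CDK7 inhibitor THZ1 was described across all expressed genes. The comparison took the 4 RNA-seq libraries of JJN3 out of the 8 in the series, 2 from cells given THZ1 at 50 nM for 24 h and 2 from cells given its vehicle DMSO. Of 63677 Ensembl genes in the count table, 13984 were expressed above a filter on low counts and were tested. JJN3 is an established human MM line that the study describes as carrying a translocation between MAF and the immunoglobulin heavy chain locus, so each value below is from 1 line, and nothing in the sources used here says whether the libraries of a treatment came from separate cultures. Both groups were grown in the same medium and differed in the agent alone as far as the labels say. Members of the gene groups described below were listed by symbol, and 52 lists with 1878 different tested genes were used.

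CDK7 is the kinase of the general transcription factor TFIIH. It phosphorylates the C-terminal domain (CTD) of the largest subunit of RNA polymerase II when transcription starts, and it activates the kinases that drive the cell cycle and that release paused polymerase. THZ1 binds CDK7 covalently and, at higher doses, also the related kinases CDK12 and CDK13. In MM, genes next to strong clusters of enhancers, such as MYC and IRF4, are known to depend heavily on this machinery.

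Total counts per library were 17476443 to 19194371. Levels are given as CPM, the counts scaled to a common library total, after TMM scaling, which sets the bulk of genes to the same level in each library, so every value is a share of the RNA measured and a change in RNA per cell could not be seen. Without counts, a gene could still lie at up to 3 counts, or 0.156 to 0.172 CPM before that scaling, and this limit covers counting error only. Replicates correlated at 0.992 (DMSO) and 0.990 (THZ1) on the log2 CPM scale across genes, against 0.942 to 0.952 between treatments. Genes are not independent replicates, and these figures describe the libraries. Genes with at least 1 count numbered 20931 and 21095 with DMSO and 22578 and 22505 with THZ1. All 10 plasma cell markers were tested, at 5.99 to 2658 CPM. Of the 10 myeloid markers, 3 had no count in any library and 7 were under the filter. The summed level of the T and NK cell markers was at most 8.44 CPM, and 2 of the 4 tested were called higher. Erythroid and platelet markers summed to at most 5.29 CPM, and stromal and endothelial markers to at most 4.47 CPM. Early B cell markers summed to 28.1 and 28.7 CPM with DMSO and 18.4 and 13.3 CPM with THZ1, and 2 of the 3 tested were called lower.

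A gene was called lower or higher where edgeR gave an adjusted p under 0.05 (Benjamini-Hochberg) and the log2 fold change passed 0.5 in size, the study's own limits. By that rule 2972 genes were lower after THZ1 (21.3% of those tested) and 2877 were higher (20.6%). Of these 5849 genes, 5845 had no overlap between the 2 DMSO and the 2 THZ1 libraries. Lack of overlap was common at large. Over all 13984 genes tested, THZ1 lay below both DMSO libraries in 5665 and above both in 5511. The 2 sides differed in reach. Of the genes that were lower, 61 had a log2 fold change below -2 and 9 below -3, while of those that were higher, 420 lay above 2 and 186 above 3. Of these 186 genes, 170 averaged under 1 CPM with DMSO. Among all tested genes 20 had no count in either DMSO library and were all called higher. Such genes could pass the filter only by being high with THZ1, so their direction follows from the filter. Their fold change has no fixed size. In RNA from a whole culture, fewer cells of a kind and less RNA per cell cannot be told apart.

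**Figure D1:**
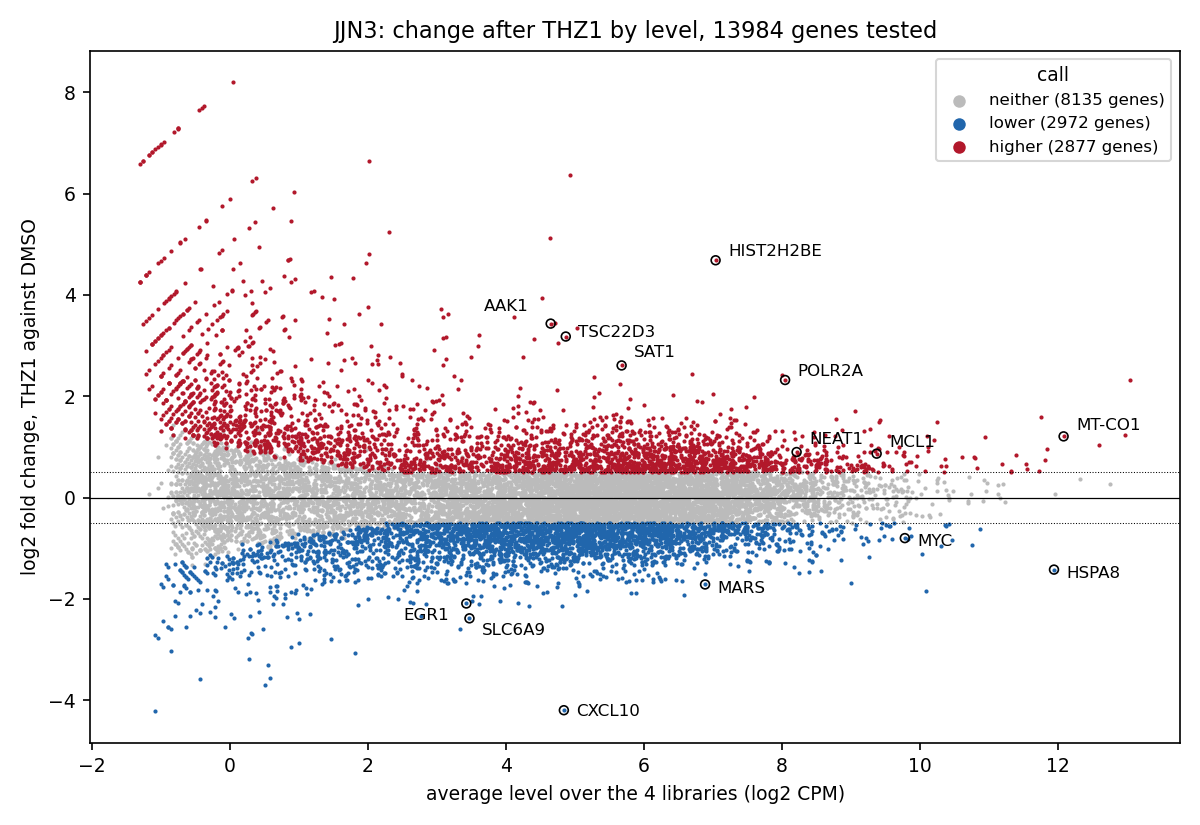
Each point is a gene tested in JJN3, with its average level over the 4 libraries (log2 CPM) on the horizontal axis and its log2 fold change after THZ1 on the vertical axis; dotted lines mark 0.5 on either side. The 2972 genes called lower (blue) mostly lie above -2, with CXCL10 lowest among the well-expressed genes, and the 2877 called higher (red) reach furthest at low levels.

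Among protein-coding genes with an average log2 CPM of 3 or more, called well expressed here, the largest fall was that of CXCL10 (chr4:76942271-76944650 on GRCh37), which encodes an interferon-induced chemokine for T cells. Its level was 50.7 and 55.7 CPM with DMSO and 3.93 and 1.93 CPM with THZ1, an 18.3-fold fall (log2 fold change -4.20, SE 0.20, adjusted p = 3.72e-07 from edgeR). The DMSO libraries lay close together and the 2 THZ1 libraries were both far below them. Next was SLC6A9, a glycine transporter gene at 19.3 and 16.8 CPM with DMSO and 2.72 and 4.14 CPM with THZ1 (log2 fold change -2.38, SE 0.19, adjusted p = 2.91e-06 from edgeR), and EGR1, an immediate early transcription factor gene, at 18.1 and 15.7 CPM with DMSO and 4.41 and 3.53 CPM with THZ1 (log2 fold change -2.09). The other large falls included genes of RNA and protein modification. METTL1, which encodes the enzyme that methylates guanosine in tRNA, fell from 23.2 and 24.3 to 6.05 and 5.52 CPM (log2 fold change -2.04), and DPH5, of the diphthamide pathway that modifies a translation elongation factor, had -1.75. Genes of mitochondrial or proline metabolism were among them as well: PYCRL, a pyrroline-carboxylate reductase gene, had a log2 fold change of -1.85, SFXN2, a mitochondrial carrier gene, -1.89, and ABHD11, a mitochondrial hydrolase gene, -1.94. GUCY1B3, a subunit of the nitric oxide receptor guanylate cyclase, had -2.08 and the adaptor gene PLEKHO1 -1.88.

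The largest rise of a well-expressed protein-coding gene was that of HIST2H2BE (chr1:149856009-149858232 on GRCh37), a histone H2B gene, at 9.92 and 9.82 CPM with DMSO and 253 and 255 CPM with THZ1 (log2 fold change 4.68, SE 0.09, adjusted p = 4.09e-10 from edgeR). AAK1, a kinase gene of clathrin-mediated endocytosis, was also among the largest, with 4.503 and 4.08 CPM with DMSO and 50.1 and 42.8 CPM with THZ1 (log2 fold change 3.43, SE 0.14, adjusted p = 1.31e-07 from edgeR). TSC22D3, which encodes the glucocorticoid-induced leucine zipper GILZ, had 5.46 and 6.24 CPM with DMSO and 54.5 and 51.7 CPM with THZ1 (log2 fold change 3.18, SE 0.12, adjusted p = 9.9e-08 from edgeR). In all of these genes, both THZ1 libraries were many times above both DMSO libraries. SAT1, the rate-limiting enzyme of polyamine breakdown, rose 6.097-fold, MAST4, a serine/threonine kinase gene, 6.84-fold, and CREBRF, a negative regulator of a stress transcription factor, 5.18-fold. CDKN2D, an inhibitor of the G1 cyclin-dependent kinases, rose from 3.24 and 2.87 to 14.6 and 17.48 CPM (log2 fold change 2.39). The largest subunit of RNA polymerase II itself, POLR2A, was on the same list of 15 and is described with its partners below.

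**Figure D2:**
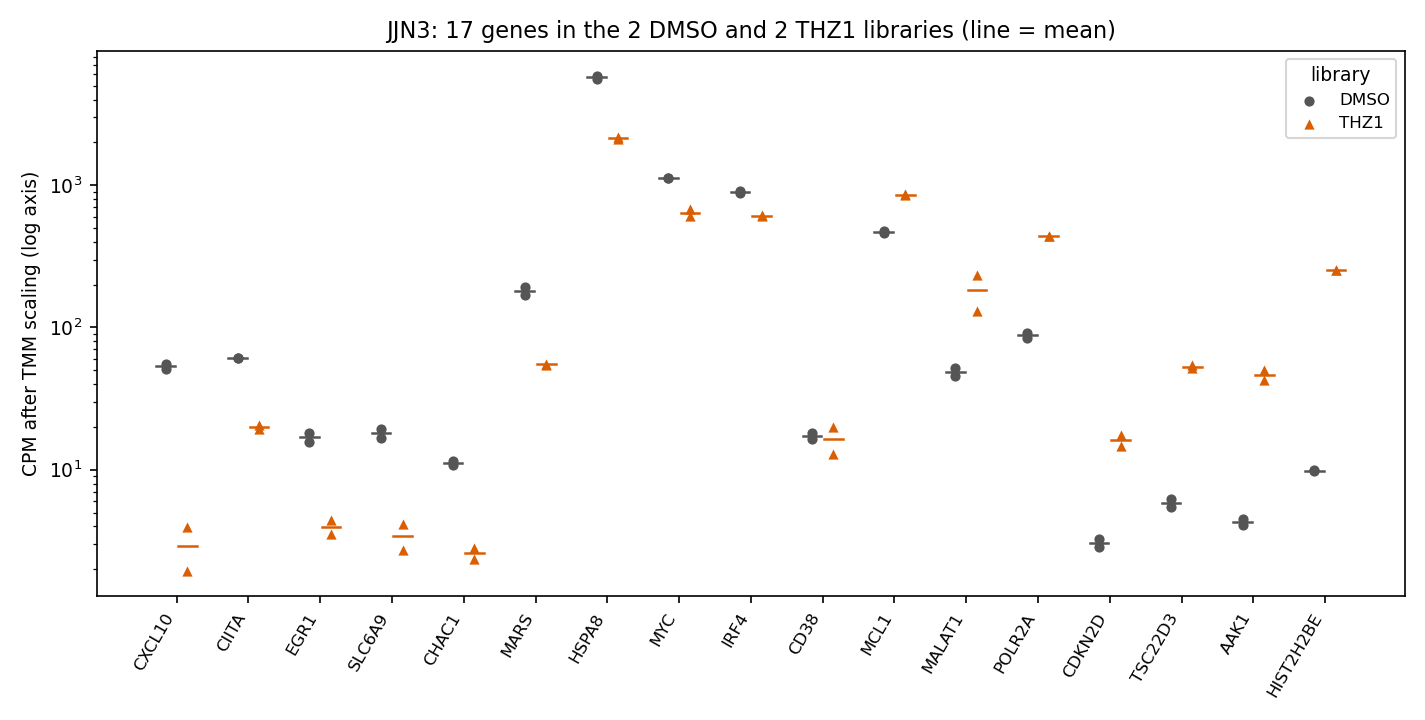
Level of 17 genes in each JJN3 library (CPM after TMM scaling, log axis), with grey circles for the 2 DMSO libraries, orange triangles for the 2 THZ1 libraries and lines for their means. The treatments do not overlap in 16 of the genes, and only CD38 has a THZ1 library on either side of the DMSO libraries.

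Genes of the general machinery moved in both directions. CDK7 itself stood at 25.8 and 23.5 CPM with DMSO and 17.96 and 19.7 CPM with THZ1 (log2 fold change -0.38, SE 0.11), its cyclin CCNH at 81.1 and 85.3 CPM with DMSO and 64.7 and 61.6 CPM with THZ1 (-0.40) and the assembly factor MNAT1 at 45.7 and 46.4 CPM with DMSO and 45.4 and 41.9 CPM with THZ1 (-0.08). None of the 3 was called, although both THZ1 libraries were below both DMSO libraries for each, and CCNH was called under total-count scaling (-0.50). Of the 9 TFIIH genes tested, 3 fell (33.3%, against 21.3% of all genes), or 1 without DMSO library 2, among them the helicase gene ERCC3 (-0.55). POLR2A (chr17:7387685-7417933 on GRCh37), which carries the CTD that CDK7 phosphorylates, was at 92.0 and 84.3 CPM with DMSO and 442 and 439 CPM with THZ1 (log2 fold change 2.32, SE 0.09, adjusted p = 9.9e-08 from edgeR), a rise of 4.996-fold. It was the only 1 of 12 RNA polymerase II subunit genes to rise, while POLR2H (-1.26), POLR2G (-0.85) and POLR2I (-0.57, and -0.48, not called, without DMSO library 2) fell.

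Paused polymerase is released by P-TEFb, the pair of CDK9 and a cyclin T, which HEXIM1 and the 7SK RNA hold inactive. Of 19 genes of this step, 8 rose (42.1%, against 20.6% of all genes) and 4 fell (21.1%, near the 21.3% over all genes). HEXIM1 rose from 66.8 and 64.1 to 164 and 149.5 CPM (log2 fold change 1.26, SE 0.08, adjusted p = 1.08e-06 from edgeR), and the cyclin gene CCNT1 by 0.78 on the log2 scale. CDK9 had 31.7 and 36.5 CPM with DMSO and 26.2 and 23.8 CPM with THZ1 (log2 fold change -0.45) and was under the limit, which it passed under total-count scaling (-0.55) and without DMSO library 1 (-0.55) or THZ1 library 1 (-0.52). The scaffold genes AFF1 and AFF4 of the super elongation complex rose (log2 fold changes 1.47 and 1.21), whereas LARP7, the 7SK-binding protein, and NELFB and NELFE, subunits of the negative elongation factor, fell (-0.92, -0.71 and -1.22).

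Among the other transcriptional kinases and BET bromodomain proteins, 7 of 13 rose (53.8%, against 20.6% of all genes) and none fell. CDK19, a Mediator kinase gene, rose from 15.5 and 14.0 to 29.1 and 33.4 CPM (log2 fold change 1.08, SE 0.12, adjusted p = 2.02e-05 from edgeR). CDK12 and CDK13 stood at log2 fold changes of 0.30 and 0.41, under the limit. None of the 13 was called lower by edgeR's quasi-likelihood test after TMM scaling with all libraries, and 1 was with scaling to total counts alone. Of 30 Mediator genes, 6 fell, near the share of 21.3% over all genes, and 4 rose (13.3%). MED11 (-1.61) and MED22 (-1.29) of the head module were lowest, and MED13L (0.82) of the kinase module was highest. Of 32 genes of Integrator and mRNA 3' end formation, 11 fell (34.4%, against 21.3%), including SYMPK (-1.32) and the endonuclease CPSF3 (-1.06). In that list 4 rose (12.5%, against 20.6%), or 2 under total-count scaling, including CPSF1 (0.83) and NUDT21 (0.70).

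Immediate early genes, which growth factors and stress switch on without new protein synthesis, mostly rose. Of 36 tested, 20 were higher (55.6%, against 20.6% of all genes) and 3 were lower (8.33%, against 21.3%). Their median log2 fold change was 0.59 against 0.00 over all genes tested. JUNB was at 80.2 and 72.1 CPM with DMSO and 261 and 194 CPM with THZ1 (log2 fold change 1.58, SE 0.13, adjusted p = 2.98e-06 from edgeR) and IER2 at 19.5 and 18.7 CPM with DMSO and 50.7 and 51.9 CPM with THZ1 (log2 fold change 1.43). IER5L had 1.72, FOS 0.95 and JUN 0.55, a call that ended under total-count scaling (0.45) and without DMSO library 2 or THZ1 library 1 (0.44 and 0.48). The exceptions were EGR1, named above, the stress kinase PLK3 (-1.15) and the phosphatase DUSP2 (-0.96, and -0.63, not called, without DMSO library 1), while DUSP6, a feedback phosphatase of the ERK pathway, had -0.26 and was not called.

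RNA processing genes that were called were mostly lower. Of 54 core spliceosome genes 20 fell (37.04%) and 1 rose. Of 39 SR proteins, hnRNPs and CLK kinases 11 fell (28.2%) and 1 rose. Over all genes tested 21.3% fell and 20.6% rose. SRSF1, which helps to define exons, was at 503 and 479 CPM with DMSO and 171 and 184 CPM with THZ1 (log2 fold change -1.47, SE 0.09, adjusted p = 8.82e-07 from edgeR). HNRNPDL (-1.45) and HNRNPD (-1.22) had similar log2 fold changes, as did the core members LSM2 (-1.25), SNRPD1 (-1.22) and PHF5A (-1.15). The 2 genes that rose were CLK1 (1.05), a kinase that phosphorylates SR proteins, and SF3B1 (0.52, not called under total-count scaling or with no filter on low counts), the branch point factor, and PRPF8, at the catalytic centre, had -0.13.

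Of 20 host genes of small nucleolar RNAs, 11 fell and 3 rose. GAS5 was at 142 and 176 CPM with DMSO and 100. and 84.4 CPM with THZ1 (log2 fold change -0.79), SNHG17 had -1.11, and SNHG9 rose with 1.198. Of 10 abundant nuclear long noncoding RNAs 6 rose and 3 fell. MALAT1, which lies at nuclear speckles, was at 52.2 and 45.8 CPM with DMSO and 232 and 132 CPM with THZ1 (log2 fold change 1.89, SE 0.20, adjusted p = 1.9e-05 from edgeR), where the 2 THZ1 libraries differed from each other by more than the DMSO libraries did but stayed above them. NEAT1, the scaffold of paraspeckles, had 207 and 207 CPM with DMSO and 373 and 399 CPM with THZ1 (log2 fold change 0.90), and MIAT rose from 3.29 and 3.57 to 13.3 and 12.9 CPM. HCP5, a long noncoding RNA of the HLA region, fell from 17.45 and 16.1 to 2.48 and 3.03 CPM (log2 fold change -2.60), and OIP5-AS1 had -1.02.

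Genes that build the translation apparatus fell in large part, while those of the cytosolic ribosome itself mostly were not called. Of 61 genes of ribosome biogenesis and RNA polymerases I and III, 39 fell (63.9%) and none was called higher by edgeR with all libraries included. The median log2 fold change was -0.61. NCL, or nucleolin, the most abundant protein of the nucleolus, was at 2304 and 2212 CPM with DMSO and 1259 and 1112 CPM with THZ1 (log2 fold change -0.93, SE 0.11, adjusted p = 4.12e-05 from edgeR), and RRP9 (-1.45), NOP16 (-1.19) and UTP14A (-1.14), factors of early rRNA processing and assembly, were lowest. Of 75 mitochondrial ribosomal protein genes 47 fell (62.7%) and 1 rose, with a median of -0.71. MRPL20 was at 101 and 108 CPM with DMSO and 32.3 and 36.2 CPM with THZ1 (log2 fold change -1.61, SE 0.09, adjusted p = 7.71e-07 from edgeR), MRPL45 had -1.59 and MRPL12 -1.47. The 1 that rose was MRPL33 (0.56), which was not called under total-count scaling (0.45) or without THZ1 library 1 (0.46).

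By contrast, 65 of the 83 cytosolic ribosomal protein genes were not called, 8 fell and 10 rose, with a median log2 fold change of 0.04. That median changed sign with scaling to total counts alone (-0.06) and without DMSO library 1 (-0.003) or THZ1 library 1 (-0.07). The balance of calls turned on the THZ1 libraries, with 14 lower and 2 higher without library 1 and 6 lower and 16 higher without library 2. Values went from -0.89 for RPS26 to 0.84 for RPS10, whose DMSO and THZ1 libraries overlapped and which was not called with DESeq2, with the robust prior in edgeR or without DMSO library 2 (0.61) or THZ1 library 1 (0.17). RPLP0, often used as a reference gene, was at 766 and 793 CPM with DMSO and 1043 and 939 CPM with THZ1 (log2 fold change 0.35). Reads that map to several places were left out by the authors, so these genes, with many processed pseudogenes, have uncertain counts.

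Aminoacyl-tRNA synthetases charge tRNAs with amino acids. Of 37 genes 23 fell (62.2%), none was called higher by edgeR, and the median log2 fold change was -0.60. MARS, for methionine, was at 170.0 and 191 CPM with DMSO and 54.3 and 55.6 CPM with THZ1 (log2 fold change -1.72, SE 0.09, adjusted p = 5.67e-07 from edgeR). AARS2, the mitochondrial enzyme for alanine, had -1.26, FARSA, a subunit for phenylalanine, -1.11, and WARS, for tryptophan, -0.84.

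A motif that the stress factor ATF4 is known to bind together with CEBP proteins, TGATGCAA read on either strand, was found in the promoter windows of 6 of the 30 synthetase genes that have 1. It was in 0.758% of all 20707 windows and 0.482% of the 9545 of tested protein-coding genes. The windows are those of RefSeq on GRCh38.p14, from 250 bases before to 50 after the annotated start. The 80 bases around the match are printed for the 4 of these genes that fell, because this share was many times that of windows at large. Capitals mark the match, and each sequence reads along its gene.

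MARS (chr12:57488018-57488097, plus strand): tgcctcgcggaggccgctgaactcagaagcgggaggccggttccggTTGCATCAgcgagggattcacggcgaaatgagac
AARS (chr16:70289650-70289729, minus strand): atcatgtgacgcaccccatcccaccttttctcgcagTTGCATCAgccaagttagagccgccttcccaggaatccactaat
IARS (chr9:92293668-92293747, minus strand): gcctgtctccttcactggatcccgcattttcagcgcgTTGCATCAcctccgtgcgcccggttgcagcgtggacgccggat
TARS (chr5:33440915-33440994, plus strand): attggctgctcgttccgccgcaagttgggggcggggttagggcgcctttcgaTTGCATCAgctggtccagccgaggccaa

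The log2 fold changes of these genes were -1.72 for MARS, -0.95 for AARS, -0.64 for IARS and -0.54 for TARS, and the match began between 187 bases before the start (AARS) and 2 bases after it (TARS). All 4 read the motif as TTGCATCA along the gene. A match is a string of letters and was not tested as a binding site. Of the 6 synthetase genes with the motif 4 fell, beside 62.2% of all synthetase genes tested. In the list of ATF4 targets described below, 1 of 30 windows held it (3.33%).

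Among 66 mitochondrial ribosomal protein windows, 27 held CCGGAAG, the core to which ETS-family factors are known to bind (40.9%), against 12.9% of all windows and 20.4% of those of tested protein-coding genes. Stretches are printed for 3 genes of the list that fell strongly and hold the motif near the start.

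MRPL20 (chr1:1407272-1407351, minus strand): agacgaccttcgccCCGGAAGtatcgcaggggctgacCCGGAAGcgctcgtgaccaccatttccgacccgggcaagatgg
MRPL27 (chr17:50373155-50373234, minus strand): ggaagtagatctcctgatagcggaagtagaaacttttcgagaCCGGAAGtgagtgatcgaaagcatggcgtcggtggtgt
MRPL3 (chr3:131502961-131503040, minus strand): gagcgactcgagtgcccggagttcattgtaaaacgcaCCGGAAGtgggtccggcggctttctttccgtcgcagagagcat

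MRPL20 held the motif in 2 copies within this stretch. MRPL20, MRPL27 and MRPL3 had log2 fold changes of -1.61, -1.23 and -1.14. CCGGAAG was common in other lists as well. It was in 53.1% of core spliceosome windows, 46.7% of synthetase windows and 34.3% of cytosolic ribosomal protein windows. Among immediate early genes the share was 3.85%.

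**Figure D3:**
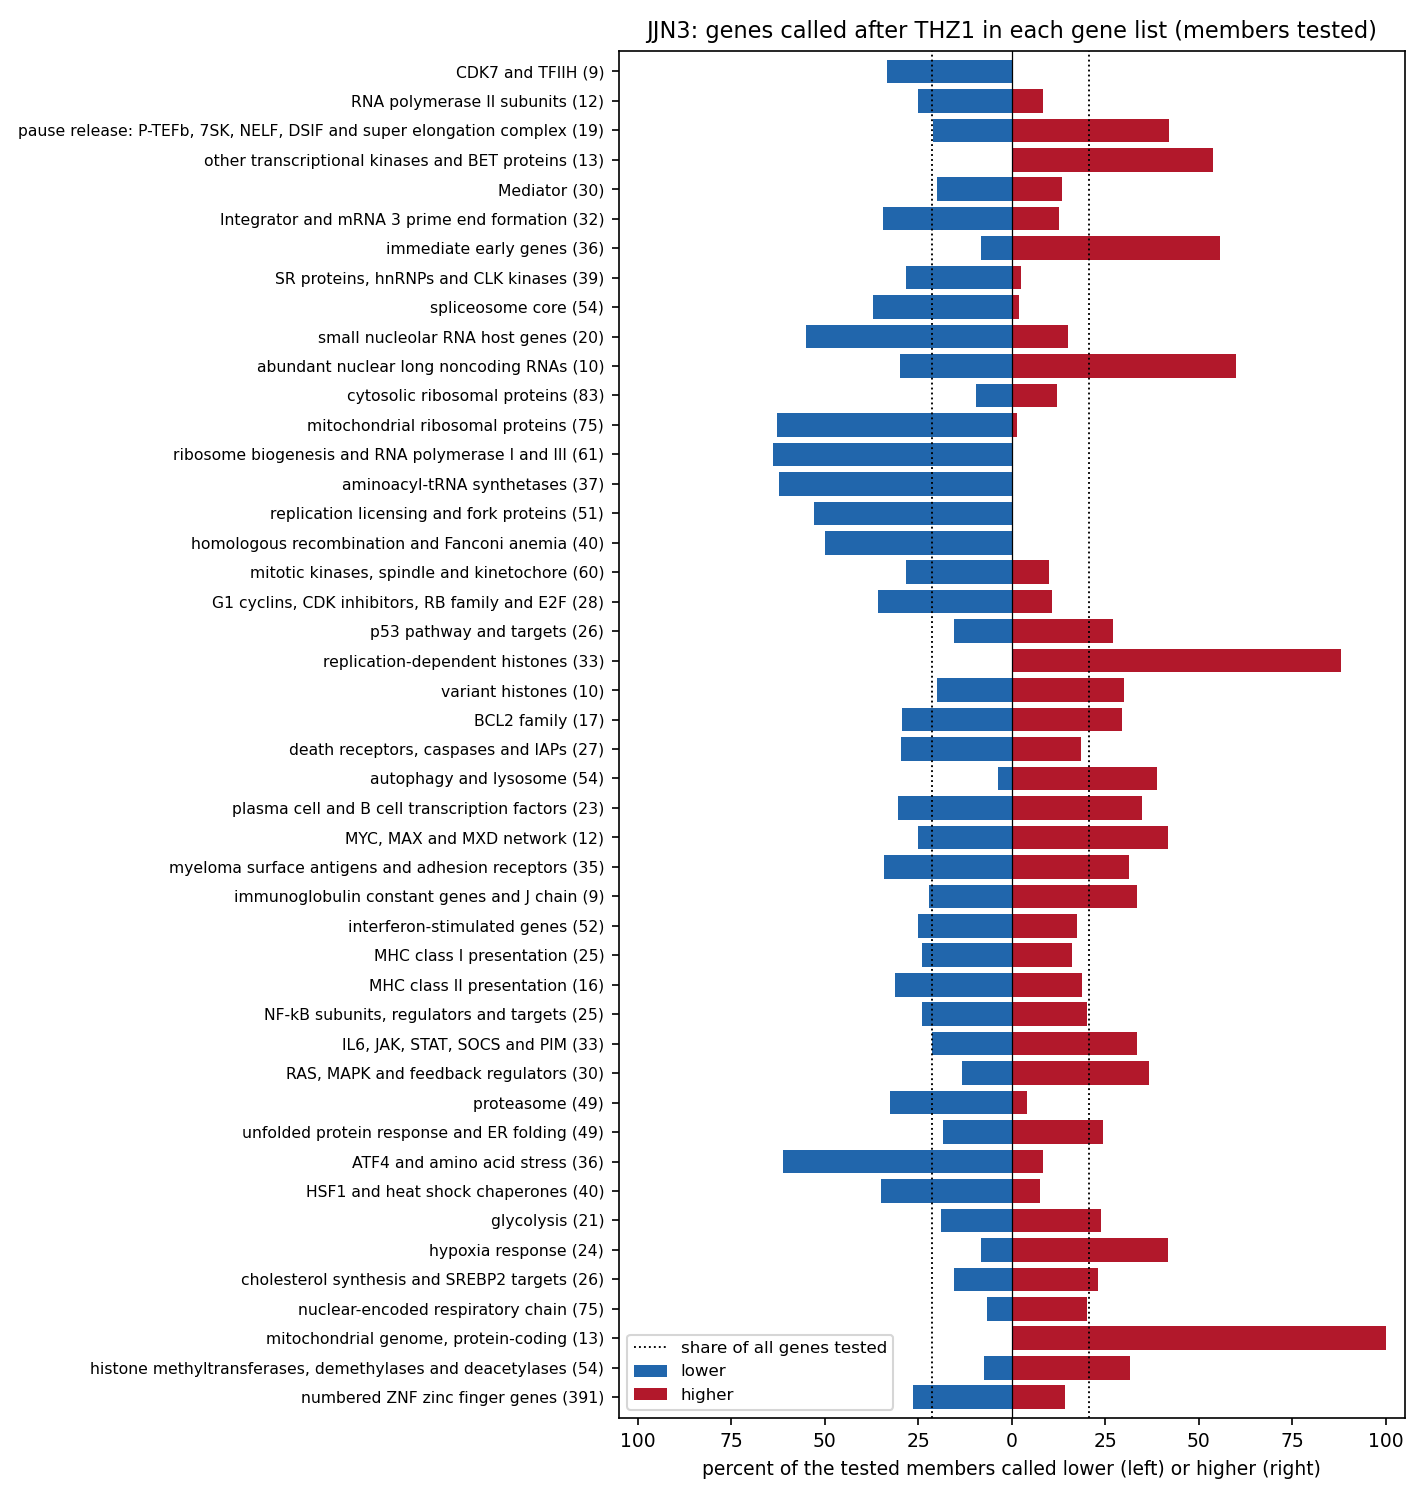
For each gene list (members tested in brackets), the bar to the left gives the percent of members called lower after THZ1 and the bar to the right the percent called higher; dotted lines mark the shares over all genes tested, 21.3% and 20.6%. Ribosome biogenesis, mitochondrial ribosomal proteins and aminoacyl-tRNA synthetases reach furthest to the left, and replication-dependent histones and the mitochondrial genome furthest to the right.

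ATF4 responds to a lack of amino acids and to endoplasmic reticulum (ER) stress. Its targets fell in 22 of 36 cases (61.1%, against 21.3% of all genes). They rose in 3 (8.33%, against 20.6%), or 1 under total-count scaling. The median log2 fold change was -0.73. ATF4 itself was at 259.9 and 268 CPM with DMSO and 156 and 123 CPM with THZ1 (log2 fold change -0.92, SE 0.11, adjusted p = 3.09e-05 from edgeR). CHAC1, which degrades glutathione, was at 11.5 and 10.7 CPM with DMSO and 2.36 and 2.81 CPM with THZ1 (log2 fold change -2.10, SE 0.19, adjusted p = 5.64e-06 from edgeR), STC2, a secreted glycoprotein, had a log2 fold change of -1.58, TRIB3, a pseudokinase, -1.02, and ASNS, asparagine synthetase, -0.78. JDP2 fell by 2.40 on the log2 scale at a low level (2.93 and 3.22 to 0.605 and 0.552 CPM). Among the 3 that rose, SLC7A11, the cystine transporter, went from 4.55 and 4.48 to 11.7 and 11.2 CPM (log2 fold change 1.34).

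Of 49 genes of the unfolded protein response of the ER, 9 fell (18.4%) and 12 rose (24.5%), near the 21.3% and 20.6% over all genes. Those that rose were 6 without THZ1 library 1 and under total-count scaling. ERN1, the ER sensor IRE1, was at 14.7 and 13.5 CPM with DMSO and 32.5 and 37.4 CPM with THZ1 (log2 fold change 1.31, SE 0.12, adjusted p = 5.44e-06 from edgeR), and the chaperones DNAJC3 (1.19) and PDIA6 (0.89) rose, while HERPUD1 (-1.06) and VIMP (-1.05), of ER-associated degradation, and DDIT3 (-0.64), the factor CHOP, fell, although DDIT3 was not called with DESeq2 or without DMSO library 1 (-0.72), DMSO library 2 (-0.57) or THZ1 library 1 (-0.57). HSPA5, the chaperone BiP, had 575 and 635 CPM with DMSO and 495 and 461 CPM with THZ1 and was not called. Of 40 HSF1 targets and heat shock chaperones 14 fell (35.0%) and 3 rose (7.5%). HSPA8, the constitutive HSP70, fell from 5565 and 5896 to 2174 and 2103 CPM (log2 fold change -1.42, SE 0.12, adjusted p = 4.2e-06 from edgeR). HSPA1A (-1.38), FKBP4 (-1.26) and DNAJB1 (-0.93) fell, the co-chaperone BAG3 rose (0.62), and HSF1 had -0.11. Of 49 proteasome genes 16 fell (32.7%) and 2 rose (4.08%). PSMB5, whose product is the target of the MM drug bortezomib, was at 46.2 and 50.3 CPM with DMSO and 19.3 and 25.6 CPM with THZ1 (log2 fold change -1.10, SE 0.13, adjusted p = 2.87e-05 from edgeR), and PSMA4 had -1.25. PSME4 (0.63) and ADRM1 (0.68) rose.

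**Figure D4:**
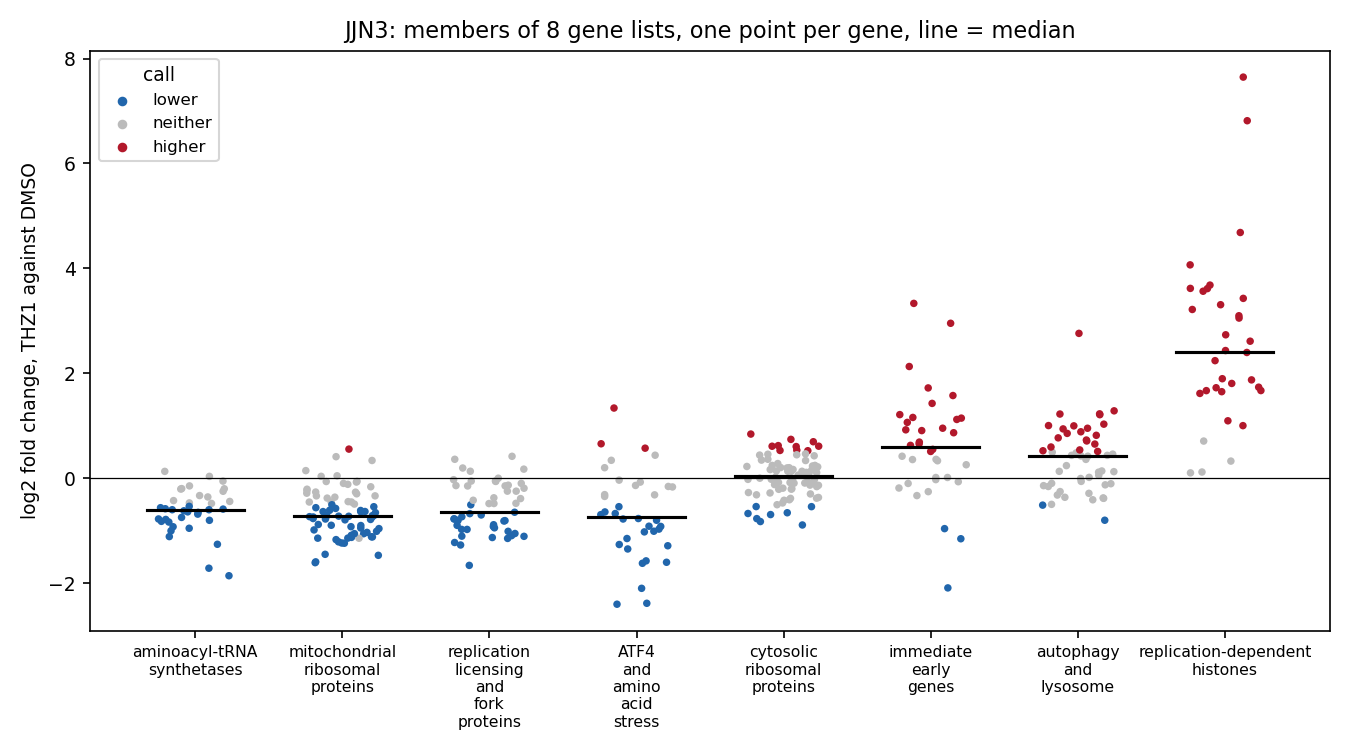
Log2 fold change after THZ1 of each tested member of 8 gene lists (a point per gene, coloured by call, spread sideways at random), with the median as a line. Medians run from -0.73 for ATF4 targets to 2.40 for replication-dependent histones, and the cytosolic ribosomal proteins stay close to 0.

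Interferon-stimulated genes moved in both directions. Of 52 tested, 13 fell and 9 rose, near the shares over all genes. CXCL10 is given above. The immunoproteasome subunits PSMB9 (-1.67), PSMB10 (-1.03) and PSMB8 (-0.86) fell, and PSMB9 went from 44.4 and 54.4 to 13.1 and 17.8 CPM. ISG15, a ubiquitin-like modifier, was at 1.42 and 2.52 CPM with DMSO and 3.69 and 5.07 CPM with THZ1 (log2 fold change 1.16, SE 0.30, adjusted p = 0.0067 from edgeR), and the guanylate-binding genes GBP1 (1.34) and GBP2 (1.32) rose, all at low levels, and ISG15 was not called without DMSO library 1 (0.80). IRF7 had 0.21.

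The motif TTTCNNTTT on either strand, the core of the element that interferon regulatory factors are known to bind, was in 30 of the 44 windows of these genes (68.2%), against 9.15% of all windows. Of the 30 genes with it, 8 fell and 6 rose, beside 21.3% and 20.6% of all genes tested. Stretches are printed for 3 of the 8 that fell.

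CXCL10 (chr4:76023668-76023747, minus strand): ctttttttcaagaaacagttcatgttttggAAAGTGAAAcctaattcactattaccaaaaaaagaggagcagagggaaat
SAMD9L (chr7:93148389-93148468, minus strand): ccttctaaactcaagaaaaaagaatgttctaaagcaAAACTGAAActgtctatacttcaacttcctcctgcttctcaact
PSMB10 (chr16:67936827-67936906, minus strand): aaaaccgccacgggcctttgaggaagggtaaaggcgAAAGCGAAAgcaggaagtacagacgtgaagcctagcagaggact

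Their log2 fold changes were -4.20 for CXCL10, -1.36 for SAMD9L and -1.03 for PSMB10. The CXCL10 match began 220 bases before the start, and those shown for SAMD9L and PSMB10 began 47 and 20 bases before it.

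Genes of antigen presentation moved in both directions. Of 25 genes of class I presentation 6 fell (24.0%) and 4 rose (16.0%), with log2 fold changes from -1.67 to 0.75. Of 16 genes of class II presentation 5 fell (31.25%) and 3 rose (18.75%). Over all genes tested 21.3% fell and 20.6% rose. CIITA, the master activator of MHC class II, was at 61.4 and 61.4 CPM with DMSO and 19.5 and 20.6 CPM with THZ1 (log2 fold change -1.61, SE 0.09, adjusted p = 7.71e-07 from edgeR), and RFX5, which binds class II promoters, at 325 and 315 CPM with DMSO and 129.6 and 130.5 CPM with THZ1 (log2 fold change -1.30). The class II gene HLA-DRB1 rose (0.60), as did the invariant chain CD74 (0.58), which was not called under total-count scaling, and HLA-DRA had 1712 and 1906 CPM with DMSO and 2093 and 2300.5 CPM with THZ1 (0.28). In class I, B2M, the shared light chain, rose from 2623 and 2789.6 to 4961 and 4051 CPM (log2 fold change 0.74, SE 0.13, adjusted p = 0.00068 from edgeR), and HLA-C had 0.55. The call of HLA-C was lost under total-count scaling (0.45) and without THZ1 library 1 (0.34), and that of HLA-DRB1 without THZ1 library 2 (0.37). HLA genes are highly variable between people and similar to each other, which makes their uniquely mapped counts uncertain.

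In the JAK and STAT list 7 of 33 fell (21.2%), near the 21.3% over all genes, and 11 rose (33.3%, against 20.6%). JAK1 rose from 239 and 232 to 567 and 533 CPM (log2 fold change 1.23, SE 0.09, adjusted p = 1.5e-06 from edgeR) while JAK3 fell from 62.4 and 63.3 to 20.7 and 22.3 CPM (log2 fold change -1.54, SE 0.09, adjusted p = 8.82e-07 from edgeR). STAT3 rose (0.80) and STAT6 fell (-1.34), and SOCS3, the feedback inhibitor, and the kinase PIM1 rose (0.90 and 0.79). Of the NF-kB list, 6 of 25 fell and 5 rose, near the shares over all genes. NFKB2, the precursor of the noncanonical pathway, was at 173 and 176 CPM with DMSO and 55.0 and 67.9 CPM with THZ1 (log2 fold change -1.50, SE 0.10, adjusted p = 1.15e-06 from edgeR), and the inhibitor CYLD rose (0.87). In RAS and MAPK signalling 11 of 30 rose (36.7%), among them BRAF (1.21), the RAS exchange factor SOS1 (1.18) and the RAS inhibitor NF1 (1.24). In that list 4 fell (13.3%), among them ARAF (-0.91). Under total-count scaling 7 of the 30 rose.

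DNA replication genes fell in 27 of 51 cases (52.9%), none was called higher by edgeR, and the median log2 fold change was -0.65. PRIM1, the primase subunit, was at 101 and 112 CPM with DMSO and 32.2 and 34.9 CPM with THZ1 (log2 fold change -1.66, SE 0.09, adjusted p = 7.04e-07 from edgeR), the polymerase subunit POLA2 had -1.27, the origin factor ORC3 -1.23, the loading factor CDC6 -1.13 and its partner CDT1 -0.92. MCM2 of the helicase was at 409 and 440.2 CPM with DMSO and 404 and 389.5 CPM with THZ1 and was not called. Of 40 genes of homologous recombination and the Fanconi anemia pathway 20 fell (50.0%, against 21.3% of all genes). BRCA1 was at 148 and 146 CPM with DMSO and 68.5 and 67.5 CPM with THZ1 (log2 fold change -1.11, SE 0.08, adjusted p = 1.33e-06 from edgeR), FANCF had -1.23, the nuclease EXO1 -1.001 and FANCD2 -0.88. BRCA2 was at 29.4 and 28.0 CPM with DMSO and 35.4 and 36.3 CPM with THZ1 (log2 fold change 0.32), with both THZ1 libraries above both DMSO libraries, and was not called. No gene of this list was called higher by edgeR with all libraries included.

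The letters TTTGGCGC, an E2F site, were in 6 of 44 replication gene windows (13.6%), against 0.874% of all windows. Stretches are printed for 3 of the 4 that fell and hold it, because this share was many times that of windows at large.

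CDC6 (chr17:40287829-40287908, plus strand): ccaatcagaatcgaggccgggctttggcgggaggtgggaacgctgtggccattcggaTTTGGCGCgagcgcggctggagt
GINS1 (chr20:25407623-25407702, plus strand): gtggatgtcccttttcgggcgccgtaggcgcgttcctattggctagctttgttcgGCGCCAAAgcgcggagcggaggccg
MCM6 (chr2:135876490-135876569, minus strand): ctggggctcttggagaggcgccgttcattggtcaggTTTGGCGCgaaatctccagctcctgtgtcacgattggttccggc

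The log2 fold changes were -1.13 for CDC6, -1.11 for GINS1, a part of the replicative helicase, and -1.01 for MCM6.

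Of 60 mitotic genes 17 fell (28.3%, against 21.3% of all genes) and 6 rose (10.0%, against 20.6%). Under total-count scaling 26 fell and 3 rose. AURKB, the kinase of chromosome alignment, was at 101 and 113 CPM with DMSO and 33.3 and 42.7 CPM with THZ1 (log2 fold change -1.49, SE 0.12, adjusted p = 2.48e-06 from edgeR), the cyclin gene CCNB1 had -1.07, the protease separase ESPL1 -1.21 and SPC24 of the kinetochore -1.14. The long genes CENPE and CENPF of the kinetochore and PRC1 of the spindle midzone rose (0.80, 0.77 and 0.68). In G1, the cyclin gene CCND2, the D cyclin that MAF is known to drive in MM, fell from 469.6 and 481 to 242 and 209.5 CPM (log2 fold change -1.07, SE 0.09, adjusted p = 5.19e-06 from edgeR), and CDK4 (-1.24), E2F1 (-1.25) and E2F5 (-1.21) fell too. All 3 members of the G1 list that rose encode CDK inhibitors, CDKN2D as given above, CDKN1C, or p57 (1.72), and CDKN1A, or p21 (3.24 and 2.92 CPM with DMSO and 6.89 and 8.16 CPM with THZ1, log2 fold change 1.29, SE 0.20, adjusted p = 0.00025 from edgeR). Among 26 genes of the p53 pathway 7 rose (26.9%, against 20.6% of all genes) and 4 fell (15.4%, against 21.3%). ZMAT3 (1.65) and SESN1 (1.58) rose, BAX fell (-1.26), and MDM2 had -0.17.

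Most tested replication-dependent histone genes rose. Of 33 tested, out of 71 in the table, 29 rose (87.9%) and none was called lower by edgeR, with a median log2 fold change of 2.40, or 2.32 with the 2 members at 0 in DMSO set to a floor of 3 counts. The other members did not pass the filter, and a gene could pass it by being high with THZ1 alone, so the share among those tested is a description of them only. Their summed level was 141 and 142 CPM with DMSO and 770.03 and 814 CPM with THZ1. HIST2H2BE, given above, made up 253 and 255 CPM of that, and HIST1H2BK went from 31.4 and 33.6 to 166 and 185 CPM (log2 fold change 2.43, SE 0.09, adjusted p = 9.9e-08 from edgeR), HIST1H2AC from 17.1 and 18.2 to 82.0 and 84.8 and HIST1H2AG from 6.22 and 5.49 to 43.4 and 53.8. HIST1H4C had 0 counts in both DMSO libraries and 36 and 10 counts with THZ1, at least 9.02-fold higher against a floor of 3 counts per library. These mRNAs normally end in a stem-loop in place of a poly(A) tail. The sources used here do not say whether libraries were made from poly(A) RNA, so the part of that step in these levels was not tested. The genes are also near-identical copies in clusters, and uniquely mapped counts can be split or lost between them.

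Of 10 variant histone genes tested, 3 rose and 2 fell. H2AFZ fell (188 and 210.0 CPM with DMSO and 114 and 135 CPM with THZ1, log2 fold change -0.68), H3F3A and H1FX rose (0.81 and 0.73), and H2AFX and H3F3B had -0.18 and -0.30. Among 18 replication-dependent genes with a promoter window 13 held the TATA box letters TATAAA (72.2%), against 10.3% of all windows, and 16 held CCAAT. Stretches are printed for the 4 with the largest rises among those with a match where a TATA box normally stands. The genes for H2A and H2B often stand head to head, so windows of neighbours can share sequence.

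HIST2H2BE (chr1:149886670-149886749, minus strand): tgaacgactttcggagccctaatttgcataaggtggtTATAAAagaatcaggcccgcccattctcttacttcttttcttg
HIST1H2BJ (chr6:27132781-27132860, minus strand): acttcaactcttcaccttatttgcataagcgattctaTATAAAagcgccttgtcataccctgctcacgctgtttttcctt
HIST1H2AG (chr6:27132975-27133054, plus strand): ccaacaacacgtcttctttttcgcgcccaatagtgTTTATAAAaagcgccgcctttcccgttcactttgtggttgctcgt
HIST1H2BK (chr6:27146843-27146922, minus strand): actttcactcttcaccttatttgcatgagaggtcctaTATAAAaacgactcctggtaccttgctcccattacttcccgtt

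The log2 fold changes were 4.68 for HIST2H2BE, 3.22 for HIST1H2BJ, 3.05 for HIST1H2AG and 2.43 for HIST1H2BK.

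Factors of plasma cell identity moved in both directions. MYC was at 1117 and 1116 CPM with DMSO and 608 and 675 CPM with THZ1 (log2 fold change -0.80, SE 0.10, adjusted p = 5.13e-05 from edgeR), a 1.74-fold fall, IRF4 at 907 and 886 CPM with DMSO and 619.8 and 604 CPM with THZ1 (-0.55), XBP1 at 527 and 535 CPM with DMSO and 338 and 357 CPM with THZ1 (-0.61) and MAF, the translocated oncogene, at 825 and 848 CPM with DMSO and 537 and 571 CPM with THZ1 (-0.59). PRDM1, or Blimp-1, had a log2 fold change of 0.49, just under the limit, and passed it with RLE size factors (0.51), at 1 CPM in 2 libraries (0.51) and without DMSO library 1 (0.57) or THZ1 library 2 (0.59). MYB, a factor of B cell precursors, had the largest fall of this list (241 and 233 CPM with DMSO and 101 and 84.5 CPM with THZ1, log2 fold change -1.35, SE 0.10, adjusted p = 1.5e-06 from edgeR), and BACH2, a repressor of plasma cell differentiation, and IKZF3, the lenalidomide target Aiolos, rose (1.42 and 1.33). In all, 7 of 23 fell (30.4%, against 21.3% of all genes) and 8 rose (34.8%, against 20.6%). In the MYC network, the MYC antagonists MXD1, MXD4 and MXI1 rose (log2 fold changes 1.99, 1.23 and 0.997), and MXD1 went from 15.4 and 15.9 to 74.0 and 50.5 CPM, while the partner MAX stood at -0.19 and MLX fell (-1.46). Of 7 known targets of MAF tested 4 fell (57.1%), CCND2 and CCR1 (-0.86) among them, and the integrin ITGB7 rose (0.81).

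Surface proteins that are used to find or treat myeloma cells went both ways. Of 35 tested, 12 were lower (34.3%, against 21.3% of all genes) and 11 higher (31.4%, against 20.6%). SLAMF7, the target of elotuzumab, was at 18.8 and 18.8 CPM with DMSO and 5.99 and 6.01 CPM with THZ1 (log2 fold change -1.65, SE 0.14, adjusted p = 3.34e-06 from edgeR), GPRC5D at 40.3 and 46.2 CPM with DMSO and 18.3 and 16.4 CPM with THZ1 (log2 fold change -1.32, SE 0.11, adjusted p = 4.29e-06 from edgeR) and TNFRSF17, or BCMA, at 169 and 188 CPM with DMSO and 110.0 and 119 CPM with THZ1 (log2 fold change -0.64, SE 0.09, adjusted p = 9.64e-05 from edgeR). CD38, the target of daratumumab, was at 16.4 and 18.1 CPM with DMSO and 20.02 and 12.8 CPM with THZ1. Its groups overlapped, with 1 THZ1 library above and 1 below both DMSO libraries. SDC1, or CD138, had -0.47, just under the limit, and passed it under total-count scaling (-0.58) and with no filter on low counts (-0.52). CD48 and CD70 fell (-1.66 and -1.50), and the adhesion receptors ITGB1, CD44 and ITGB7 rose (1.52, 1.29 and 0.81). CCR2 rose 3.92-fold from a low level. IGJ, the J chain of polymeric immunoglobulin, was at 2120.3 and 2140.0 CPM with DMSO and 2658 and 2488 CPM with THZ1 (0.27, not called), and MZB1, an ER protein for immunoglobulin assembly, fell (-1.05). The constant genes IGHA1 and IGKC were at most 3.51 CPM in any library.

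In the BCL2 family 5 of 17 fell and 5 rose (29.4% each, against 21.3% and 20.6% of all genes). The antiapoptotic MCL1, on which MM cells often depend, was at 474 and 464 CPM with DMSO and 848 and 864 CPM with THZ1 (log2 fold change 0.87, SE 0.09, adjusted p = 1.55e-05 from edgeR), and BCL2 at 113 and 96.5 CPM with DMSO and 136 and 151 CPM with THZ1 (log2 fold change 0.46, not called, but 0.57 and called without DMSO library 1 and 0.53 without THZ1 library 1). The proapoptotic BH3-only genes BMF (1.94), BBC3, or PUMA (1.75), and BCL2L11, or BIM (1.46), rose, with BIM at 97.1 and 90.6 CPM with DMSO and 264 and 252 CPM with THZ1, whereas PMAIP1, or NOXA (-1.005), and the effector BAX (-1.26) fell. CASP8 rose (0.71), FADD (-1.34), HTRA2 (-1.25) and cytochrome c CYCS (-0.82) fell.

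Autophagy and lysosome genes rose in 21 of 54 cases (38.9%, against 20.6% of all genes) and fell in 2 (3.70%, against 21.3%). Their median log2 fold change was 0.43. LAMP1, a major lysosomal membrane protein, was at 186 and 189 CPM with DMSO and 463 and 413 CPM with THZ1 (log2 fold change 1.22, SE 0.09, adjusted p = 1.76e-06 from edgeR), and the protease CTSB (1.23) and the sterol carrier NPC2 (1.28) rose likewise. TFEB, the lysosomal transcription factor, had -0.38 and the receptor SQSTM1 0.13. Neither was called, but TFEB was without THZ1 library 2 (-0.64). Without that library 5 genes of the list fell, and under total-count scaling 4 fell and 16 rose.

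In metabolism, hypoxia-inducible genes rose in 10 of 24 cases (41.7%, against 20.6% of all genes), with EGLN3 (1.52) and ADM (1.26) highest. VEGFA was not called (0.15). For ADM the study reports the opposite, a fall after THZ1 in JJN3 by RT-PCR relative to GAPDH, at a lower dose. The cause of this difference was not tested. Of 21 glycolysis genes 4 fell and 5 rose, near the shares over all genes. LDHA fell from 1618 and 1718 to 825 and 892 CPM (log2 fold change -0.96, SE 0.10, adjusted p = 2.02e-05 from edgeR) and HK2 fell (-0.88), while PKM rose (0.66), and GAPDH had 0.52, a call lost under total-count scaling (0.42), with no filter on low counts (0.48) and without DMSO library 1 (0.51), DMSO library 2 (0.53) or THZ1 library 1 (0.38). In cholesterol synthesis INSIG1, the feedback protein that holds SREBP factors in the ER, fell from 781 and 776 to 209 and 274 CPM (log2 fold change -1.69, SE 0.12, adjusted p = 1.73e-06 from edgeR), SREBF2, the factor itself, rose (0.82), and 6 of 26 genes rose (23.1%) and 4 fell (15.4%). Of 75 nuclear genes of the respiratory chain 15 rose, near the share of 20.6% over all genes, and 5 fell (6.67%), from -1.003 for NDUFV3 to 0.96 for ATP5E. Those that rose were 9 without DMSO library 1 and 6 without THZ1 library 1, and total-count scaling gave 6 higher and 9 lower.

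The 13 mRNAs of the mitochondrial genome were all called higher, with a median log2 fold change of 1.19. Their summed level was 28739.5 and 13441 CPM with DMSO and 41974 and 51823 CPM with THZ1, so the DMSO libraries differed from each other by more than the THZ1 libraries did. MT-ND5 was at 2396 and 1049.9 CPM with DMSO and 4808 and 5608 CPM with THZ1 (log2 fold change 1.596, SE 0.29, adjusted p = 0.000641 from edgeR) and MT-CO1 at 3519.7 and 1717 CPM with DMSO and 5432 and 6665 CPM with THZ1 (log2 fold change 1.21, SE 0.26, adjusted p = 0.00212 from edgeR). Without DMSO library 2 the median was 0.69 and 7 of the 13 were called. DESeq2 called 3 of them, and edgeR with a robust estimate of the spread called 1. The mitochondrial share of all counts was 3.36% and 1.65% with DMSO and 5.34% and 6.63% with THZ1, and its part in these levels was not tested.

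Chromatin enzymes rose more often than they fell, 17 of 54 (31.5%) against 4 (7.41%), beside 20.6% and 21.3% of all genes. ASH1L (85.7 and 73.4 CPM with DMSO and 330.3 and 223 CPM with THZ1, log2 fold change 1.80, SE 0.16, adjusted p = 4.99e-06 from edgeR), KMT2C (1.52) and SETD2 (1.36), histone methyltransferases with very large genes, were highest. HDAC6 (-1.31) and SUV39H1 (-0.83) fell, and EZH2 had 0.28. Of 391 numbered ZNF zinc finger genes 103 fell (26.3%) and 56 rose (14.3%), with a median of -0.17.

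With all transcript lengths pooled, protein-coding genes over 100 kb rose more often than they fell. Those under 5 kb and of 5 to 20 kb fell more often than they rose. Among 11589 protein-coding genes, the median log2 fold change was -0.17 for genes under 5 kb, -0.25 for those of 5 to 20 kb, -0.03 for those of 20 to 100 kb and 0.24 for those over 100 kb. Of the genes of 5 to 20 kb 32.7% fell and 12.3% rose, while of the genes over 100 kb 10.8% fell and 29.8% rose. Genes called lower had a median length of 20.9 kb and a median transcript of 3.14 kb, those called higher 57.9 kb and 4.89 kb, and the rest 37.2 kb and 4.05 kb. The difference between the 5 to 20 kb and the over 100 kb classes kept its direction, in the median, within each quartile of exon GC content, of average level and of transcript length, although in the highest GC quartile 15.1% and 14.5% rose. It was small among the shortest transcripts. In the lowest quartile of transcript length the medians were -0.30 and -0.20, and of the genes over 100 kb 22.4% fell and 13.3% rose. Genes under 5 kb went the other way in that quartile, with a median of -0.15, above that of genes over 100 kb, and 19.6% rose. In the next quartile of transcript length the medians of the 5 to 20 kb and over 100 kb classes were -0.28 and -0.05. There 20.2% of the genes over 100 kb fell and 17.7% rose. In the highest quartile of average level, genes under 5 kb had a median of 0.06, and 17.3% fell and 24.6% rose. Across genes, Spearman's rho with log2 fold change was 0.24 for genomic length, 0.24 for the longest transcript, 0.13 for exon number, -0.11 for exon GC and 0.05 for average level. Genes are not independent replicates, and these values are a description. Length, transcript length and exon number go together, and their separate parts were not tested.

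**Figure D5:**
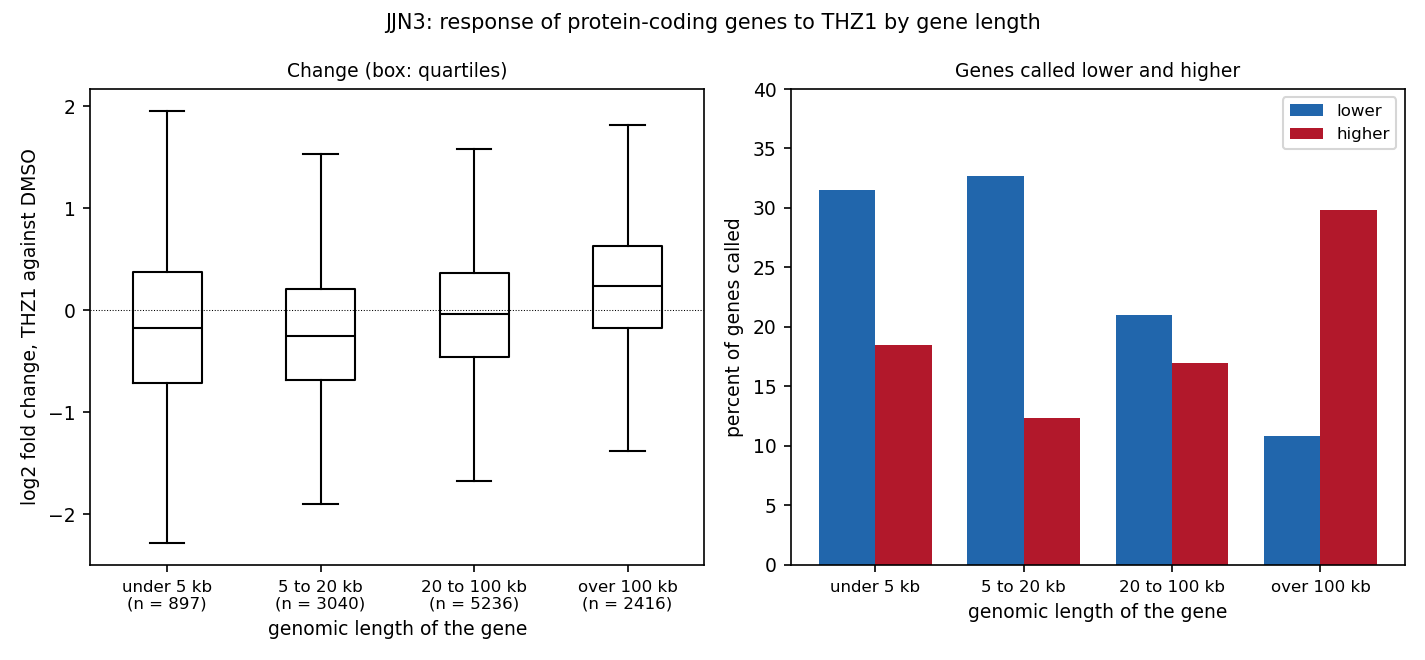
Left, log2 fold change after THZ1 of protein-coding genes in 4 classes of genomic length (box: median and quartiles; whiskers: 1.5 times the quartile range; n below); right, percent of each class called lower (blue) or higher (red). The median rises from -0.25 at 5 to 20 kb to 0.24 over 100 kb, where 29.8% of genes were called higher and 10.8% lower.

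Among the genes tested, noncoding classes leaned upward. Of 1298 long noncoding RNA genes 30.4% rose and 14.9% fell (median log2 fold change 0.25), and of 373 processed pseudogenes 30.3% rose and 6.43% fell (0.45), against 18.5% and 22.7% of protein-coding genes. With DESeq2 the shares that rose lay close together, at 16.1%, 15.8% and 15.01% for long noncoding, processed pseudogene and protein-coding genes, while 8.01%, 2.95% and 20.9% fell. In edgeR the length pattern was not the same: noncoding genes under 5 kb rose most often (38.0%), against 20.4% over 100 kb. A gene low with DMSO could pass the filter by being high with THZ1 alone. How far this shaped the noncoding shares was not tested. At 1 CPM in 2 libraries, 30.9% of 916 long noncoding RNA genes rose and 18.6% fell (median 0.16). Of 217 processed pseudogenes 32.3% rose and 8.76% fell there (0.39). That filter, too, can be passed with THZ1 alone. Among single noncoding genes MIR663A, the locus of a microRNA, rose from 0.557 and 0.906 to 80.1 and 41.9 CPM and RNA5-8SP2, a copy of the 5.8S ribosomal RNA, from 1.06 and 1.31 to 22.1 and 9.76 CPM. Both were counted here among the ribosomal RNA-like features, a class set by annotation and name. All features of that class together made up 0.000573% and 0.000550% of counts with DMSO and 0.0170% and 0.00841% with THZ1. CSAG4, a pseudogene of the CSAG cancer-testis family, rose 11.8-fold. Of the falls, LINC00958 went from 42.5 and 48.0 to 8.89 and 11.5 CPM (log2 fold change -2.14, SE 0.13, adjusted p = 9.42e-07 from edgeR), RNASEH1-AS1 from 29.5 and 34.7 to 6.83 and 7.78 CPM and TAPSAR1, an antisense transcript of the antigen transporter locus, from 16.5 and 19.1 to 4.23 and 4.41 CPM. Whether reads were counted by strand is not given in the sources used here, so reads of an antisense gene and its partner cannot be told apart.

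By chromosome, protein-coding genes of chromosomes 17, 19 and 16 fell most often (29.5%, 28.4% and 27.8%), and those of chromosome 19 rose least often (11.7%). On chromosomes 18 and 4, 14.8% and 16.1% fell. Among the promoter motifs, CCGGAAG showed the largest gap between the 2 directions, with 24.4% of the windows of genes that fell, 14.9% of those that rose and 20.6% of the rest. The gap was 26.6% against 14.7% in genes of 5 to 20 kb and 13.7% against 9.59% in genes over 100 kb. It was 23.6% against 19.7% in genes under 5 kb and 25.2% against 18.7% in genes of 20 to 100 kb. Genes called neither way had 24.9% under 5 kb and 14.0% over 100 kb. In those classes the genes that fell held the motif no more often than these. At 5 to 20 kb and 20 to 100 kb genes called neither way had less than those that fell, 24.1% and 21.1%. The other motifs differed less. CACGTG, the site of MYC and its partners, was in 11.5% and 9.04% of windows, CCAAT in 37.5% and 34.3%, TATAAA in 5.12% and 6.71% and TTTCNNTTT in 7.52% and 7.05%. All 13 motifs were searched on both strands, none contains another though matches can overlap in part, and the shares are a description without a test.

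With 2 libraries against 2, a test on ranks cannot pass a threshold of 0.05, so each call rests on a spread per gene that edgeR moderated across genes. The common biological coefficient of variation, a single value over all genes, was 0.074. These spreads measure differences between these libraries only, and the median SD of log2 CPM was 0.074 with DMSO and 0.115 with THZ1.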

How the data were processed

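RNA-seq libraries of JJN3 (2 DMSO, 2 THZ1) were analysed from raw counts per Ensembl gene that the authors deposited. The submitters' processing notes name hg19, STAR 2.5.2a and featureCounts: 50-base single-end reads were aligned and uniquely mapped reads counted per gene, and depth was 17476443 to 19194371 counts per library. Their own comparison columns (fold changes and p-values) were not used, and only gene symbols were taken from that table. The libraries labelled H929 were not used here. Counts were tested in R 4.3.3 with edgeR 4.0.16 (filterByExpr, TMM, quasi-likelihood, Benjamini-Hochberg over all genes tested), a procedure tested on simulated data. SE is the absolute log2 fold change over the root of the F statistic. DESeq2 1.42.0, other scalings, filters and limits, the replicate number as a block and leaving out each library were alternatives. Gene lists, motifs and the rule for named genes (lead genes of each list, the 15 largest changes each way at an average log2 CPM of at least 3 without overlap, up to 3 each way per list at an average of at least 1, and 5 noncoding genes each way) were chosen with earlier results of these data known. Sequences shown are the called list members with the largest change, at an average log2 CPM of at least 1, whose window holds the motif. Genes on chromosome 8 were left out of the sequences. For TATAAA the match had to lie where a TATA box normally stands. Of the genes tested, 13668 matched GENCODE annotation lifted to GRCh37, which gave class, length and coordinates. No sample column was left unmapped. Some genes are not reported here.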

Additional observations from a re-analysis of the deposited data

How the results depend on the processing

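No gene called lower was called higher under any alternative, or the reverse. The counts of 2972 lower and 2877 higher were within 1.5 times under every alternative except a log2 fold change beyond 1, which left 1006 lower and 1397 higher. They were 2608 and 2220 with DESeq2, 2878 and 2966 with RLE size factors, 3639 and 2353 with total counts only, 2957 and 2864 without rRNA-like and mitochondrial features, 3236 and 2946 with no filter on low counts, 2808 and 2656 at 1 CPM in 2 libraries and 4212 and 4035 on the adjusted p alone. Total counts alone moved the median log2 fold change of all genes by -0.10, and lower genes made up 60.7% of calls in place of 50.8%. With the replicate block there were 3013 and 2889, of which 2963 and 2846 were among the main calls, and it changed no call of a named gene. Leaving out 1 library gave 2582 to 3093 lower and 2485 to 2975 higher. A robust prior in edgeR, added after the data were seen, gave 2987 and 2858 and called 1 of the 13 mitochondrial mRNAs. Among named genes, the log2 fold change of CD38, -0.08 and not called, was -0.43 to 0.22 with 1 library left out, and the cause was not tested. Same-numbered libraries did not deviate together (r = 0.001), so numbers were not taken to pair them. Depth limits genes near 3 counts per library.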
